A study of Mus musculus with 6 samples.

Results

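The collagen genes of mouse fat are described here: every gene whose single platform symbol reads Col, a number, a and a number. The array held 42 of them among 18193 genes with a single symbol, and each was read through the brightest of its probe sets over the 6 arrays. They fall into 11 fibrillar, 6 basement membrane and 25 other collagens. The tissue was whole epididymal white adipose tissue, the fat pad along the epididymis, of male mice aged 10 weeks on a mixed C57BL6;129Sv background. The 3 Pparg ldi/+ mice had 1 ldi allele of Pparg, tied to lipodystrophy in the labels, beside a wild-type one. The 3 wild-type (WT) mice were litter-matched, and each mouse had its own Affymetrix MOE430v2.0 array, so 3 arrays a genotype limit the precision. The pads were not separated into cell types, and the sources used here do not say what alters the ldi allele. P-values rest on the spread between the arrays of these mice only, which joins differences between mice with those of dissection and measurement. The main comparison had no term for litter.

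Collagens are proteins of 3 chains wound into a triple helix and secreted into the extracellular matrix. Fibrillar collagens (types I, II, III, V, XI, XXIV and XXVII) form or nucleate fibrils, which give tissue its tensile strength, and type IV collagen builds the sheet-like network of basement membranes. In white fat every adipocyte is wrapped in a basement membrane, stromal fibroblasts lay down fibrils between the cells, and type VI collagen is abundant around the adipocytes. Pparg encodes a nuclear receptor needed for fat cells to form.

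Values are MAS5 signals, linear intensities per probe set, scaled here to a trimmed mean of 500 per array. A log2 difference is Pparg ldi/+ minus WT on the scale of log2(signal + 32), so a positive value means higher in Pparg ldi/+ fat, and the offset shrinks differences of dim genes. Genes whose mean over the 6 arrays lay below a log2 value of 7.46, the median of all probe set means, were not tested. Rose and fell are used for genes past a Benjamini-Hochberg adjusted p of 0.05 by limma, fitted over 11269 genes. Pparg itself fell, with signals of 1732, 1709 and 1901 in Pparg ldi/+ fat and 4378, 4440 and 4998 in WT fat (log2 difference -1.35, SE 0.084, limma adjusted p = 1.06e-05). The groups did not overlap. Pparg ldi/+ arrays 1 and 2 stood apart from the other 4 in transcripts of the epididymis: the summed signal of 6 epididymal markers was 15005, 21085 and 387 on Pparg ldi/+ arrays 1, 2 and 3, against 278 to 831 on the WT arrays. Lcn5, 1 of the 6, did not follow the sum, with signals of 41.45, 29.46 and 7.837 in Pparg ldi/+ fat and 457.1, 5.859 and 7.329 in WT fat. The collagen values without Pparg ldi/+ arrays 1 and 2 are given after the classes.

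Collagen genes went both ways, as many rising as falling. In Pparg ldi/+ fat 5 of the 26 collagen genes bright enough for the test rose and 5 fell, 38.5% in all. Among all genes tested, 32.5% passed the threshold, 16.2% rising and 16.3% falling, so the share of collagens called lay near that of genes in general. The median log2 difference was 0.03 over the 26 collagens and -0.004 over all tested genes. The 5 that rose were Col1a1, Col1a2 and Col27a1 of the fibrillar class and the fibril-associated Col12a1 and Col16a1. The 5 that fell were the fibrillar Col5a3, the basement membrane gene Col4a1, the fibril-associated Col14a1, and the multiplexins Col15a1 and Col18a1. Read through the brightest probe sets, every difference was smaller than 2-fold in the tested members, the largest being the 1.82-fold rise of Col1a1. The groups did not overlap in 11 of the 26, that is in the 10 called genes and in Col4a3. Among all tested genes they did not overlap in 47.5%. For any 1 of these genes alone, an exact two-sided permutation test of the 6 values gives p = 0.1, the smallest that 3 against 3 arrays allow. In whole tissue, fewer cells of a type and less RNA per cell cannot be told apart.

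**Figure D1:**
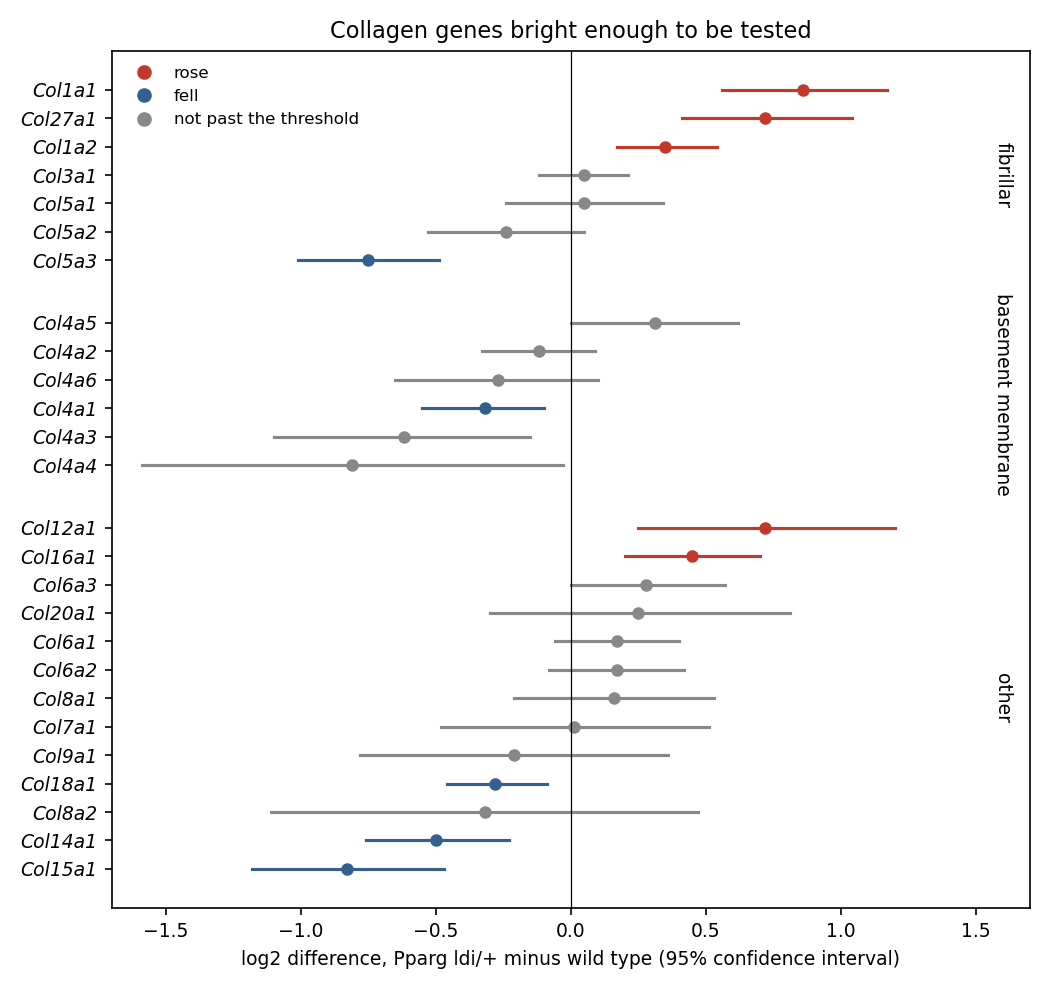
Log2 difference between Pparg ldi/+ and wild-type fat (horizontal axis, with 95% confidence intervals) for the 26 tested collagen genes, grouped by class and ordered by size within it. Red genes rose, blue genes fell and grey genes did not pass the threshold. The differences run from -0.83 for Col15a1 to 0.86 for Col1a1, and risers and fallers stand side by side in the fibrillar class and among the other collagens.

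Both chains of type I collagen, the main fibril-forming collagen of connective tissue, were higher in Pparg ldi/+ fat. Col1a1, which encodes the chain present in 2 copies per molecule, had signals of 10182, 9532 and 13410 in Pparg ldi/+ fat and 6821, 5633 and 5593 in WT fat. Every Pparg ldi/+ array lay above every WT array, and array 3 was the highest. The means were 11041 ± 2080 and 6016 ± 698 (SD, n = 3 each), a 1.82-fold rise (log2 difference 0.86, 95% confidence interval 0.56 to 1.17, SE 0.134, limma adjusted p = 0.00143). Its call held in all 17 alternative settings, between 0.71 and 1.16. Col1a2, the partner chain, had signals of 18058, 19111 and 20155 in Pparg ldi/+ fat and 16638, 14004 and 14349 in WT fat. The groups again did not overlap, with a 1.28-fold rise (log2 difference 0.35, confidence interval 0.17 to 0.54, SE 0.081, limma adjusted p = 0.0107). A dimmer probe set of Col1a2 showed a larger difference, 0.73. The log2 difference of Col1a1 was larger than that of Col1a2 by 0.51, with an exact two-sided permutation p = 0.1 (0.2 after adjustment over 6 pairs of chains), a test that cannot pass 0.05 with 3 against 3 arrays, so whether their rises differ in size is not settled.

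Of the other 5 tested fibrillar chains, 1 rose, 1 fell and 3 did not pass the threshold, where 32.5% of all tested genes passed. Col3a1, whose type III collagen mixes with type I in soft tissue fibrils, had signals of 23363, 23050 and 22641 in Pparg ldi/+ fat and 24088, 22690 and 20294 in WT fat. The groups overlapped, and the log2 difference was 0.05 (confidence interval -0.12 to 0.21, limma adjusted p = 0.674). Its second, dimmer probe set passed the threshold at 0.41. Col27a1, a fibrillar collagen best known from cartilage, rose 1.65-fold, with signals of 563.8, 433.7 and 442.3 in Pparg ldi/+ fat and 277.2, 260.7 and 290.3 in WT fat (log2 difference 0.72, SE 0.14, limma adjusted p = 0.00438). All 3 Pparg ldi/+ arrays were above all 3 WT arrays, and Pparg ldi/+ array 1 was the highest. The dimmer probe set of Col27a1 showed a larger difference, 1.21, with a wide confidence interval of 0.28 to 2.14. It did not pass the threshold (limma adjusted p over all probe sets = 0.0544).

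Type V collagen nucleates and thins type I fibrils, and 1 of its 3 chains passed the threshold. Col5a3, the chain of the least widespread type V heterotrimer, fell 1.69-fold. Its signals were 5388, 5671 and 5363 in Pparg ldi/+ fat and 9173, 11014 and 7840 in WT fat, without overlap and with a narrow range in Pparg ldi/+ fat (log2 difference -0.75, confidence interval -1.01 to -0.49, SE 0.114, limma adjusted p = 0.00126). The call ended when the mean of its probe sets was used, at -0.55. Its other probe set was too dim to be tested. Col5a1 and Col5a2, the chains of the common heterotrimer, did not pass the threshold, at log2 differences of 0.05 (confidence interval -0.24 to 0.34) and -0.24 (-0.53 to 0.05). Without WT array 3 the difference of Col5a2 was -0.37 and passed, while that of Col5a1 was -0.04. The remaining 4 fibrillar members, Col2a1, Col11a1, Col11a2 and Col24a1, were too dim to be tested.

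Promoter windows are shown for Col1a2, which rose, and Col5a3, which fell, so that the DNA in front of 2 fibrillar genes with opposite differences can be compared. Each runs from 250 bases before to 50 bases after the start of the gene and comes from RefSeq (GRCm38.p6), where 33 of the 42 collagen genes had a window. Capitals mark CCAAT on either strand, the core of the element bound by the CCAAT-binding factors.
Col1a2, chr6:4505368-4505667, plus strand: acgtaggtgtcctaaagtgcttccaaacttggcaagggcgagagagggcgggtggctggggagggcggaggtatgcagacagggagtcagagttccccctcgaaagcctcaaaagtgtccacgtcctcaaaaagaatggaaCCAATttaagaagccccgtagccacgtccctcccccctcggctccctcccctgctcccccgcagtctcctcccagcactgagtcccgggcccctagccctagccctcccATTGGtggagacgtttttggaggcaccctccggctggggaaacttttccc
Col5a3, chr9:20815018-20815317, minus strand: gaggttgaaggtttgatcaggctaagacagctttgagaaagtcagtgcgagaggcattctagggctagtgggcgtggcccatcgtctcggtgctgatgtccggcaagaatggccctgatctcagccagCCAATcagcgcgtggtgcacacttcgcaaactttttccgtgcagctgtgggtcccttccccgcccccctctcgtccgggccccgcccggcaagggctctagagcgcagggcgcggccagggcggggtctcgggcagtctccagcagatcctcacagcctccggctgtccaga
The Col1a2 window held CCAAT at 2 places and the Col5a3 window at 1. Of the 36 collagen windows, 13 held it (36.1%), against 37.4% of all 32851 windows of the table. The GC box GGGCGG, read on both strands like CCAAT, whose reverse complement it can overlap by its first letters, stood in 22 of the 36 collagen windows (61.1%) and in 35.7% of all windows, and TATAAA in 5 (13.9%) and 13.6%. A match describes letters only.

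**Figure D2:**
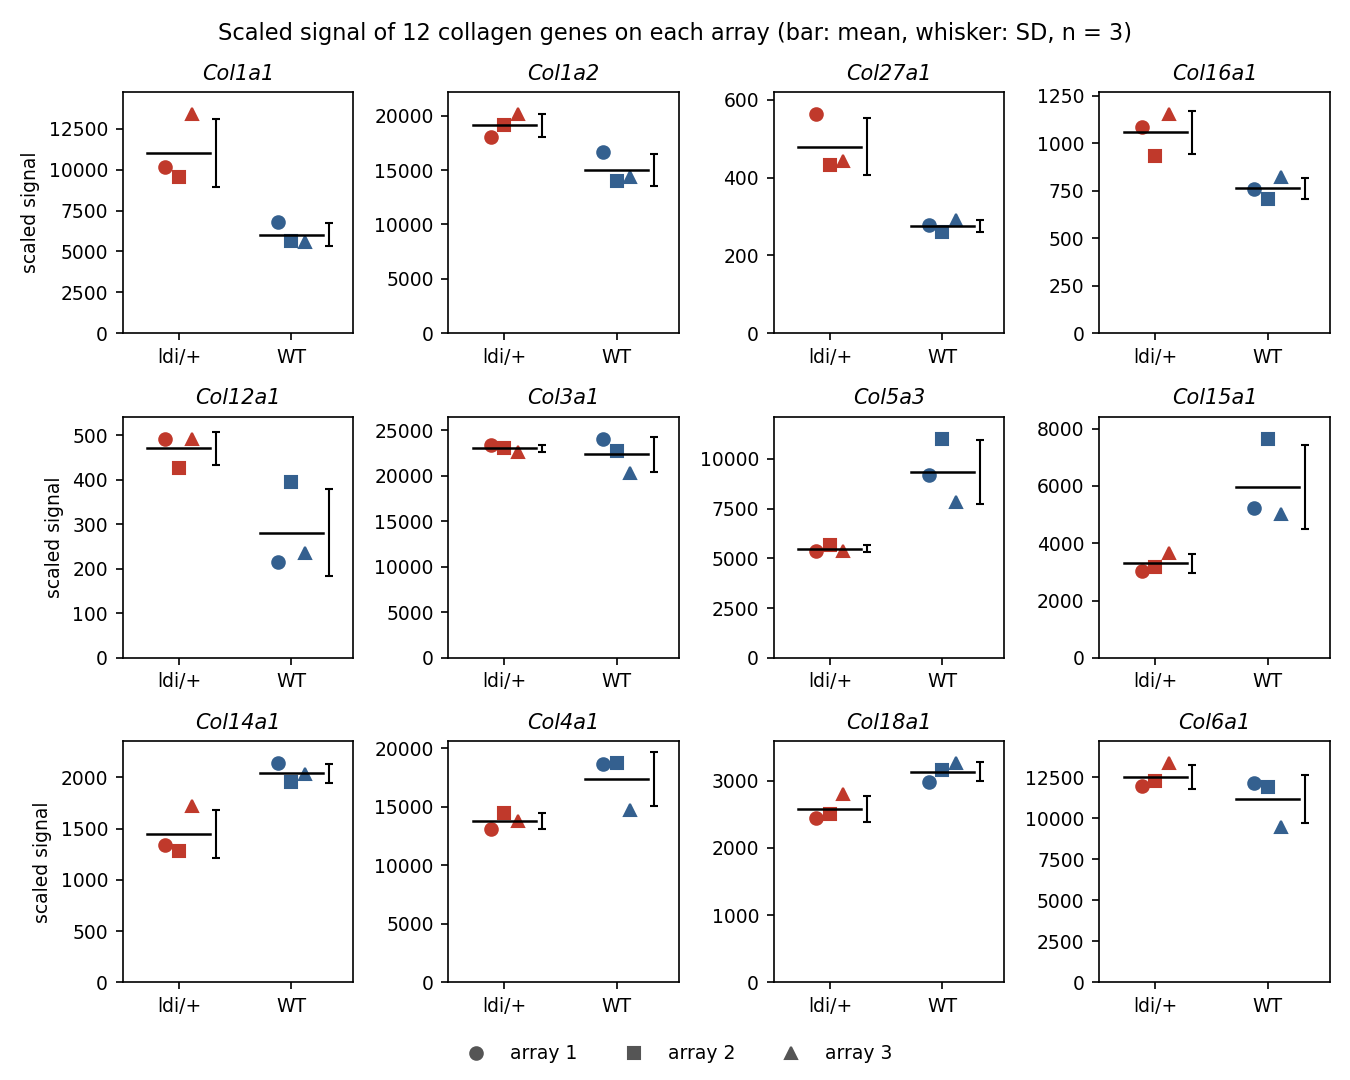
Scaled signal (vertical axis, from 0) of 12 collagen genes on each array, Pparg ldi/+ left and wild type right, with the mean as a bar and the SD as a whisker. Circles, squares and triangles are arrays 1, 2 and 3 of a genotype. Col1a1 lies between 9532 and 13410 in Pparg ldi/+ fat and between 5593 and 6821 in wild type, while the points of Col3a1 and Col6a1 overlap.

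Of the 6 basement membrane chains 5 had a difference below 0, and 1 of them passed the threshold. Among all 11269 tested genes 5677 were below 0. The median of the 6 chains was -0.30, but -0.12 with the brighter 30% of probe sets and -0.10 with the mean of all probe sets of each gene. The lowest differences were those of Col4a3 and Col4a4, which were not tested in those settings and passed the main filter through WT fat alone. That favours values below 0, so the sign count and the median are not read as a fall of the class. Col4a1, one of the 2 chains of the common type IV network, had signals of 13131, 14515 and 13801 in Pparg ldi/+ fat and 18664, 18733 and 14740 in WT fat. WT array 3 was close to the Pparg ldi/+ arrays, though still above them. The fall was 1.25-fold (log2 difference -0.32, confidence interval -0.55 to -0.10, SE 0.099, limma adjusted p = 0.0357). It stood near the threshold: the call ended without Pparg ldi/+ array 1 (-0.29), 2 (-0.36) or 3 (-0.32) and without WT array 1 (-0.27) or 2 (-0.26), and it ended in unscaled values (-0.27), with no filter on dim genes and with no intensity trend. The second probe set of Col4a1 differed by -0.45 and passed. Col4a2, the partner chain, had signals of 8484, 9444 and 8983 in Pparg ldi/+ fat and 10315, 10485 and 8486 in WT fat, which overlapped (log2 difference -0.12, confidence interval -0.33 to 0.09, limma adjusted p = 0.376).

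Col4a1 and Col4a2 are neighbours that are read in opposite directions from a short common stretch of chromosome 8. Their RefSeq windows (GRCm38.p6) are shown for this reason, with the 78 bases that they share in capitals, 1 being the reverse complement of the other.
Col4a1, chr8:11312777-11313076, minus strand: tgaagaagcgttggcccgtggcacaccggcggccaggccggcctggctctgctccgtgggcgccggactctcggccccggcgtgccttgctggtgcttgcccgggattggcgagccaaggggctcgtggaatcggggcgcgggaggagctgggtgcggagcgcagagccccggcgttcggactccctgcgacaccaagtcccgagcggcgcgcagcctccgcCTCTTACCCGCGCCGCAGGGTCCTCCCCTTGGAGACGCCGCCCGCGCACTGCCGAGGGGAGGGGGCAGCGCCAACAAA
Col4a2, chr8:11312555-11312854, plus strand: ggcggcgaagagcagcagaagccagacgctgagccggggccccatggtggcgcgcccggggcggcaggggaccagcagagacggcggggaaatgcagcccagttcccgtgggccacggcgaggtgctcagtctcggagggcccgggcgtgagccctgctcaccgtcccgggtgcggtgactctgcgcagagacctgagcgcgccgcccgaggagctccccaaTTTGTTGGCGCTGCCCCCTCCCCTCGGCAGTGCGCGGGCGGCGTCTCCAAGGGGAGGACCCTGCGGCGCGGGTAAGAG
The log2 difference of Col4a1 minus that of Col4a2 was -0.21, with an exact two-sided permutation p = 0.1 (0.2 adjusted over the 6 pairs), the smallest p that the design allows, so the test could not pass. Col4a3 with Col4a4 and Col4a5 with Col4a6 are neighbours as well, as are Col3a1 with Col5a2 and Col6a1 with Col6a2. The same contrast was 0.19 for Col4a3 minus Col4a4, 0.58 for Col4a5 minus Col4a6, 0.28 for Col3a1 minus Col5a2 and 0.0 for Col6a1 minus Col6a2, with exact two-sided permutation p of 0.8, 0.1, 0.2 and 0.9, and adjusted values of 0.2 or more.

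Col4a3 and Col4a4 encode chains of the type IV network best known from the kidney glomerulus. Col4a3 had signals of 117.3, 108.7 and 116.7 in Pparg ldi/+ fat and 221.3, 145.3 and 222.9 in WT fat, and the groups did not overlap. Its log2 difference of -0.62 (SE 0.21) just missed the threshold (limma adjusted p = 0.0508), and it passed without WT array 2 (-0.80), with quantile normalisation (-0.66) and with no intensity trend. Col4a4 differed by -0.81 (confidence interval -1.59 to -0.03, limma adjusted p = 0.105), with WT signals spread from 148.8 to 358.9. Both passed the filter on dim genes through WT fat alone, where their log2 means were 7.82 and 7.99, against 7.19 and 7.18 in Pparg ldi/+ fat. The fibril-associated Col9a1 did too, at 7.46 in Pparg ldi/+ and 7.67 in WT fat. Col4a5 and Col4a6, the X-linked chains, differed by 0.31 and -0.27 and did not pass. Col4a5 passed at 0.46 without WT array 3. A dimmer probe set of Col4a6 pointed the other way, at 0.11.

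Type VI collagen forms beaded filaments that link cells to the fibrils around them. None of its 3 main chains passed the threshold. Col6a1 had signals of 11945, 12252 and 13354 in Pparg ldi/+ fat and 12161, 11872 and 9468 in WT fat (log2 difference 0.17, confidence interval -0.06 to 0.40). Col6a2 had 12370, 13365 and 14196 in Pparg ldi/+ fat and 12823, 12992 and 9908 in WT fat (log2 difference 0.17, confidence interval -0.08 to 0.42). Col6a3, the large chain from which the adipokine endotrophin is cut, had 4706, 5137 and 5964 in Pparg ldi/+ fat and 4375, 4954 and 3674 in WT fat (log2 difference 0.28). In all 3 genes WT array 3 was the lowest of the 6 arrays and Pparg ldi/+ array 3 the highest, and the groups overlapped. Their limma adjusted p were 0.235, 0.279 and 0.118.

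The fibril-associated collagens, which sit on the surface of fibrils, were split. Col12a1 and Col16a1 rose and Col14a1 fell, while Col9a1 at -0.21 and Col20a1 at 0.25 did not pass the threshold. Among all tested genes 32.5% passed. Col12a1, of type XII collagen of dense connective tissue, had signals of 491, 427.7 and 492.9 in Pparg ldi/+ fat and 214.4, 395 and 235.5 in WT fat (log2 difference 0.72, SE 0.208, limma adjusted p = 0.028). WT array 2 came close to the Pparg ldi/+ arrays. The call ended without Pparg ldi/+ array 1 (0.69) or 3 (0.69), without WT array 1 (0.57) or 3 (0.63), and with no filter on dim genes, and the next probe set of Col12a1 differed by 0.04. Col16a1 had signals of 1085, 933.9 and 1155 in Pparg ldi/+ fat and 762.2, 707.5 and 820.3 in WT fat (log2 difference 0.45, SE 0.11, limma adjusted p = 0.0135). Its groups did not overlap, and the call ended without Pparg ldi/+ array 1 (0.43) or 3 (0.39). Col14a1, of type XIV collagen, which regulates fibril assembly, had signals of 1346, 1284 and 1720 in Pparg ldi/+ fat and 2140, 1956 and 2033 in WT fat (log2 difference -0.50, SE 0.116, limma adjusted p = 0.0112). Its second probe set passed as well, at -0.42.

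Both multiplexins fell, where 16.3% of all tested genes fell, but the call of Col18a1 ended in several settings. Multiplexins are collagens with interrupted helices that carry glycosaminoglycan chains and lie in basement membrane zones. Col15a1, whose type XV collagen joins basement membranes to the matrix around fat cells, muscle and capillaries, had signals of 3041, 3187 and 3673 in Pparg ldi/+ fat and 5231, 7652 and 5030 in WT fat. The groups did not overlap, and WT array 2 was the highest. The means were 3300 ± 331 and 5971 ± 1460 (SD, n = 3 each), a 1.77-fold fall (log2 difference -0.83, confidence interval -1.18 to -0.47, SE 0.155, limma adjusted p = 0.00383). Col15a1 has 1 probe set on this array. Col18a1, whose C-terminal fragment is endostatin, had signals of 2439, 2509 and 2801 in Pparg ldi/+ fat and 2980, 3155 and 3261 in WT fat (log2 difference -0.28, SE 0.082, limma adjusted p = 0.0308). Its call ended without Pparg ldi/+ array 1 (-0.24) or 2 (-0.26), without WT array 2 (-0.27) or 3 (-0.25), in unscaled values (-0.22), with no intensity trend and with the mean of its probe sets (-0.11), and the second probe set, nearly as bright, differed by 0.06. The promoter window of Col15a1, the gene of the largest fall, comes from the same RefSeq build and held none of the 3 motifs searched.
Col15a1, chr4:47207762-47208061, plus strand: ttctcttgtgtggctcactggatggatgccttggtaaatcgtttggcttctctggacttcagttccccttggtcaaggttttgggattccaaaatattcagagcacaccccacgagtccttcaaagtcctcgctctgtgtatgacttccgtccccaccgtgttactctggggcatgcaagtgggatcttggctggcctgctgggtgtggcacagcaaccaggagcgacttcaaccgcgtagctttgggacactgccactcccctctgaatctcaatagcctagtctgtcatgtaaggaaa

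Among the remaining tested members, the network-forming Col8a1, of vascular matrix, differed by 0.16 (confidence interval -0.21 to 0.53) and Col8a2 by -0.32 (-1.11 to 0.47). Col7a1, of the anchoring fibrils of skin, differed by 0.01 (-0.48 to 0.51). None of the 3 passed the threshold, and the interval of Col8a2 allows a fall as large as that of Col15a1.

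The 16 members below the filter had group means of at most 197.6, and without detection calls it is not known which of them were above background. In 12 of them the groups overlapped. The other 4 were Col11a2, Col6a5, Col23a1 and Col26a1, where 15.7% of all genes below the filter had groups that did not overlap. Col11a2, a chain of cartilage fibrils, had signals of 121.9, 143.6 and 119.5 in Pparg ldi/+ fat and 17.2, 43.49 and 12.53 in WT fat. Col6a5 had 180.5, 226.2 and 186.2 in Pparg ldi/+ fat and 112.9, 110.6 and 42.08 in WT fat. Col23a1, a transmembrane collagen, had 75.88, 108.4 and 84.09 in Pparg ldi/+ fat and 196.7, 167.9 and 177.5 in WT fat. In a fit with no filter on dim genes, where 18.8% of genes passed, Col11a2 passed at a log2 difference of 1.54 and Col23a1 at -0.82, while Col6a5 at 0.99 and Col26a1 at -0.73 did not. The second probe set of Col26a1 pointed the other way, at 0.67. That of Col23a1 differed by -0.22, and its groups overlapped. When WT array 3 was left out, Col6a5 was bright enough for the test and passed the threshold.

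Several collagen genes have more than 1 probe set, and these did not always give the same size. In a fit of each probe set on its own, added after the data were seen, 43 collagen probe sets were tested, of which 8 rose and 8 fell, where 29.4% of all probe sets with a single gene passed in either direction. The 8 that fell included the brightest probe set of Col4a3, a gene not called in the gene fit (-0.62, limma adjusted p over all probe sets = 0.0423). Among the 15 genes with at least 2 tested probe sets, 2 had tested probe sets of opposite sign, Col4a6 and Col18a1. The brightest probe sets of Col1a2, Col3a1 and Col5a1 gave 0.35, 0.05 and 0.05. Their next brightest gave 0.73, 0.41 and 0.43, and the limma adjusted p over all probe sets of these was 0.00285, 0.0322 and 0.0562. For Col1a1 the order was the opposite, with 0.86 in the brightest and 0.67 in the other probe set. Averaged over all probe sets of each gene, the fibrillar median was 0.32, against 0.05 with the brightest ones.

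**Figure D3:**
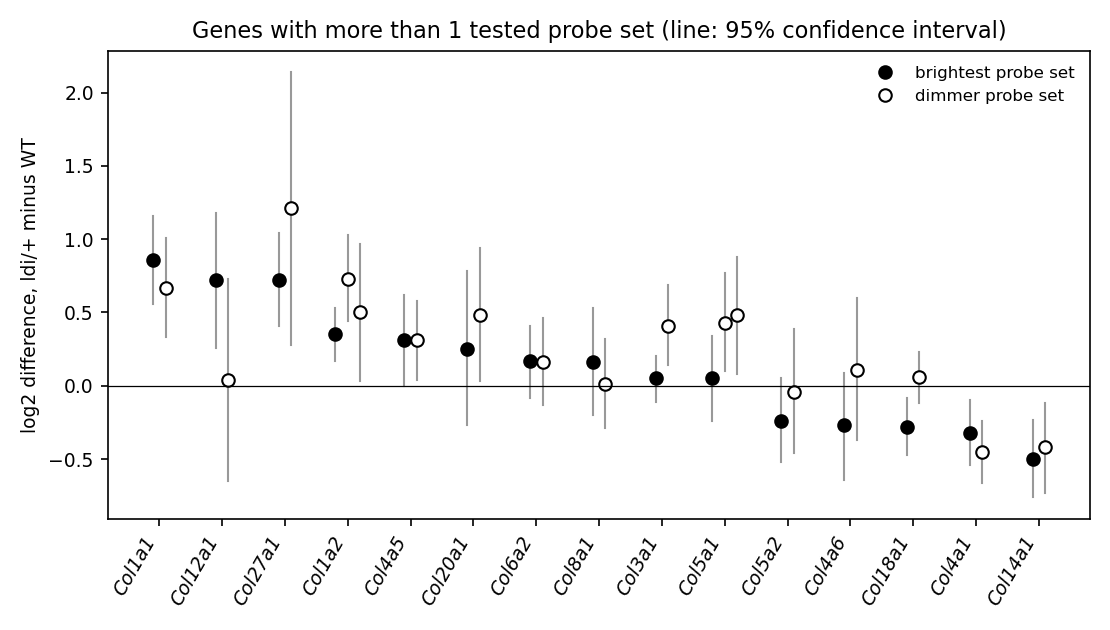
Log2 difference between Pparg ldi/+ and wild-type fat (vertical axis, with 95% confidence intervals) for each tested probe set of the 15 collagen genes that have several. Filled points are the brightest probe set of a gene and open points its dimmer ones. The dimmer probe sets of Col1a2, Col3a1 and Col5a1 lie above the brightest ones, and those of Col12a1 and Col18a1 lie near 0.

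The arrays of a genotype were not alike in their collagen signals. In 15 of the 26 tested collagens the highest Pparg ldi/+ value was on array 3, a larger share than the 33.9% among all tested genes. The summed signal of the 42 genes was 130157, 135113 and 144838 on Pparg ldi/+ arrays 1, 2 and 3, and 142524, 142304 and 120309 on the WT arrays, so the genotypes overlapped in it. When array 3, the Pparg ldi/+ array within the WT range of epididymal markers, stood alone for Pparg ldi/+ fat, an alternative added after the data were seen that assumes this lone sample to vary like the WT group, Col1a1 still rose and Col5a3 still fell, and the other 8 of the 10 calls ended, where 14.4% of all genes passed. All 10 kept their direction there, with 0.43 for Col1a2, 0.62 for Col27a1, 0.58 for Col16a1, 0.79 for Col12a1, -0.67 for Col15a1, -0.24 for Col14a1, -0.32 for Col4a1 and -0.16 for Col18a1. With array 3 left out instead, the calls of Col12a1, Col16a1 and Col4a1 ended.

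Of 37 listed genes that make and mature collagen, 28 were tested, 5 rose and 5 fell, and the median log2 difference was -0.02. The share called, 35.7%, lay near the 32.5% of all tested genes. Pcolce and Pcolce2 encode enhancers of the proteinase that removes the C-terminal propeptide of fibrillar procollagens, and 1 rose while the other fell. Pcolce had signals of 7605, 7643 and 7886 in Pparg ldi/+ fat and 3837, 3450 and 4227 in WT fat (2.01-fold higher, log2 difference 1.01, limma adjusted p = 4.86e-05). Pcolce2 had 357, 366.1 and 391.6 in Pparg ldi/+ fat and 1683, 2132 and 1272 in WT fat (4.19-fold lower, log2 difference -2.07, limma adjusted p = 4.56e-05). Neither pair of groups overlapped.

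Pxdn, the peroxidasin that cross-links type IV collagen, fell 2.37-fold, with signals of 2392, 2081 and 2293 in Pparg ldi/+ fat and 4984, 5751 and 5426 in WT fat (limma adjusted p = 1.75e-05). Rcn3, an endoplasmic reticulum protein that takes part in collagen production, rose 1.40-fold (limma adjusted p = 0.012). The other 3 that rose were Colgalt1, which adds galactose to collagen, at a log2 difference of 0.38, the lysyl hydroxylase gene Plod2 at 0.35, and Ppib, of the prolyl 3-hydroxylation complex, at 0.29. Their limma adjusted p were 0.0269, 0.0397 and 0.036, nearer the threshold, and their single calls were not followed through the alternative settings. The other 3 that fell were the lysyl hydroxylase gene Plod1 at -0.70, the collagen chaperone gene Serpinh1 at -0.49 and the procollagen export gene Mia3 at -0.38. The prolyl 4-hydroxylase genes P4ha1, P4ha2 and P4hb differed by -0.03, 0.12 and 0.01, and the cross-linking enzyme genes Lox, Loxl1, Loxl3 and Loxl4 by 0.08, -0.18, 0.08 and -0.20, and none of these 7 passed.

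Laminins and other partners of type IV collagen in basement membranes fell in 5 of 10 cases and rose in 1. All 10 were tested, and their median was -0.34. The share called was 60%, against 32.5% of all tested genes, of which 16.3% fell and 16.2% rose. Lama4, a laminin chain of fat and vessels, fell 1.44-fold (limma adjusted p = 0.00134) and Hspg2, the perlecan gene, fell 1.33-fold (limma adjusted p = 0.0196). The fall of Hspg2 ended in unscaled values (-0.36), without Pparg ldi/+ array 1 (-0.42) or 2 (-0.33) and without WT array 1 (-0.33). The other 3 that fell were Nid1 at -0.47, where the groups overlapped, Lamb2 at -0.36 and Lama2 at -0.32. Their limma adjusted p were 0.0261, 0.0435 and 0.0237, and their single calls were not followed through the alternative settings. The member that rose was Lamc1, the common laminin gamma chain, at 0.35 (limma adjusted p = 0.00415).

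Of 9 small leucine-rich proteoglycans that coat fibrils, 8 were tested, 2 fell and 1 rose. The share called, 37.5%, lay near the 32.5% of all tested genes. Prelp fell 3.46-fold, with signals of 4725, 5481 and 4601 in Pparg ldi/+ fat and 19258, 16576 and 15717 in WT fat (limma adjusted p = 6.05e-06), and Podn fell 2.36-fold (limma adjusted p = 0.000663). Lum, which encodes lumican, rose 1.42-fold (limma adjusted p = 0.00237). Dcn, the decorin gene, was at -0.12 and did not pass.

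Of 7 genes of collagen breakdown and uptake, 5 were tested, 4 rose and none fell, with a median of 0.54. Among all tested genes 16.2% rose and 32.5% passed in either direction. Ctsk, the collagen-degrading cathepsin K, had signals of 1463, 1310 and 1947 in Pparg ldi/+ fat and 743.8, 736.1 and 601.9 in WT fat (2.19-fold higher, limma adjusted p = 0.000703). Mrc2, an endocytic collagen receptor, rose 1.91-fold. The gelatinase gene Mmp2 and its activator Mmp14 each rose 1.46-fold, and the member that did not pass was Mmp9 at 0.17. Of 9 collagen receptors, 5 were tested, 1 rose and 2 fell, where 32.5% of all tested genes passed. Lair1, an inhibitory receptor of leukocytes that binds collagen, rose 3.94-fold (limma adjusted p = 3.78e-05). Ddr1, a receptor tyrosine kinase for collagen, fell 1.91-fold (limma adjusted p = 0.00119) and the integrin gene Itga1 fell 1.41-fold (limma adjusted p = 0.0415). The call of Itga1 ended without Pparg ldi/+ array 1 (-0.47), 2 (-0.55) or 3 (-0.46) and without WT array 1 (-0.35) or 3 (-0.48), and it ended with no filter on dim genes and with no intensity trend. Itgb1, the shared beta subunit, and Ddr2 differed by -0.09 and 0.17 and did not pass.

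**Figure D4:**
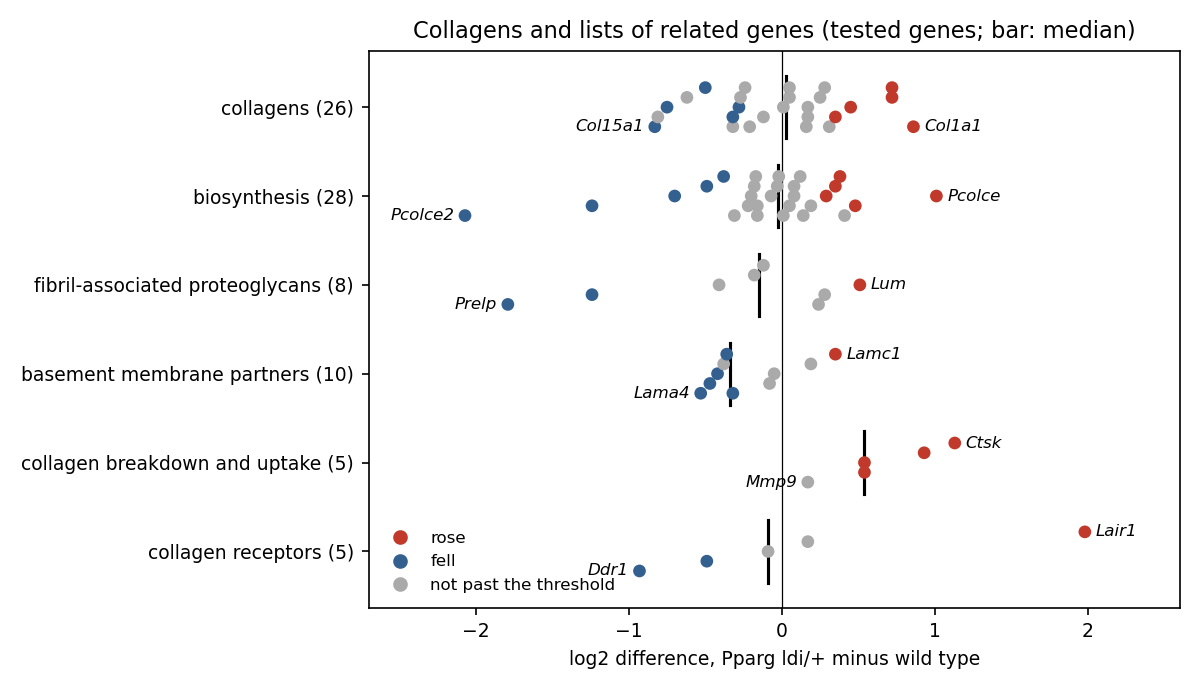
Log2 difference between Pparg ldi/+ and wild-type fat (horizontal axis) for tested genes of the collagen family and of 5 lists of related genes, with the number tested in parentheses and the median as a bar. Red genes rose, blue genes fell and grey genes did not pass the threshold. The collagens lie between -0.83 and 0.86 around a median of 0.03, the basement membrane partners have a median of -0.34 and the breakdown and uptake genes one of 0.54.

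Markers of the cells that make or degrade collagen also differed between the genotypes, and their part in the collagen values was not tested. Among all tested genes 16.2% rose and 16.3% fell. All 9 macrophage markers rose, with summed signals of 95078 to 97572 in Pparg ldi/+ fat and 38271 to 48467 in WT fat. Of 6 adipocyte markers 5 fell (67291 to 75631 in Pparg ldi/+ fat, 117939 to 135272 in WT fat), of 7 endothelial markers 6 fell (7456 to 8850 and 15040 to 16183), and of 5 mesothelial markers 4 fell (4359 to 5326 and 7982 to 10173). Of 8 stromal fibroblast markers 3 fell and 1 rose, and their sums nearly met, at 40982 to 44421 in Pparg ldi/+ fat and 44772 to 47115 in WT fat. Pi16, Dpp4 and Dpt fell, at log2 differences of -0.91, -0.59 and -0.38, and Lum rose, at 0.51. Pdgfra, Dcn, Cd34 and Thy1, at 0.01, -0.12, -0.22 and -0.08, did not pass. Of 7 smooth muscle and pericyte markers, 6 were tested, 3 rose and 1 fell, and the sums overlapped (23868 to 25691 and 24352 to 25395). The dimmest listed marker of these 6 cell types was Cnn1, with signals down to 33.04 in Pparg ldi/+ and 31.91 in WT fat. It was too dim to be tested, and without detection calls it is not known whether it was above background.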

How the data were processed

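Epididymal fat of 3 Pparg ldi/+ and 3 WT mice was measured on 1 array per mouse. The deposited intensities, linear and given for each probe set, were made with MAS5 per the submitters' processing notes, which name it for 2 of the 6 samples. Its version and detection calls are not known here. Trimmed means of the deposited intensities lay between 201 and 236. Each array was rescaled to a mean of 500 after trimming 2% at each end, and log2 was taken after adding an offset of 32.

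Of 45101 probe sets, 64 were controls, 34945 had a single symbol, 932 several and 9160 none. Symbols were updated through a RefSeq table (GRCm38.p6) for 34741, and 204 kept theirs. A gene was read through its brightest probe set. Genotypes were compared over all 6 arrays with limma 3.58.1 in R 4.3.3 (eBayes on lmFit coefficients, prior variance following the mean signal, two-sided, no covariates, Benjamini-Hochberg adjustment over all tested genes). The procedure was tested on simulated data.

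The members, lists, markers and tests were chosen with earlier results of these data known. By the naming rule every collagen was accounted for, with full statistics for called ones (at most 8 in each direction) and for Col1a1, Col1a2, Col3a1, Col4a1, Col4a2, Col6a1, Col6a2 and Col6a3, and Pparg and the 2 genes with the smallest p in each direction of each related list were named. Other genes were named after their values were seen. Alternatives changed the scaling, offset, filter, trend, probe set rule, the arrays used and a block on the replicate number. Numbers did not pair the arrays: same-numbered arrays' deviations correlated at -0.126, -0.089 and -0.094. Actin 3'/5' ratios were 1.096 to 1.132 and Gapdh ratios 0.749 to 0.814, overlapping between genotypes.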

Additional observations from a re-analysis of the deposited data

How the results depend on the processing

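The 5 rises and 5 falls among collagens were kept with offsets of 16 and 100, with quantile normalisation and with x_at probe sets left out. With a replicate block, 4 rose and 5 fell, the call of Col12a1 ending at 0.72, and the whole table had 3149 calls against 3659 without it, 8 of them biosynthesis genes and 16 partner genes. The call of Itga1 ended there too (-0.49), while the count of partner genes stayed at 16. The block moved no count by over 1.5 times. Without 1 array, between 3 and 6 collagens rose and between 3 and 5 fell. With Pparg ldi/+ array 3 alone, 1 rose and 1 fell, as against 1611 calls in the whole table, 5 biosynthesis genes against 10, and 8 partner genes against 16. With the brighter 30% of probe sets 3 collagens rose, since Col12a1 and Col27a1 were then not tested. With the mean of all probe sets 3 fell, and in unscaled values 3 fell.

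The median of the tested collagens was 0.16 with the mean of all probe sets, 0.08 in unscaled values, which moved the median of all genes to 0.045, and -0.04 to 0.07 without 1 array. The fibrillar median was 0.31 with array 3 alone, 0.32 with the mean of all probe sets and -0.02 to 0.15 without 1 array. The basement membrane median was -0.45, -0.10 and -0.12 with array 3 alone, the mean of all probe sets and the brighter 30%. The median of the other collagens was 0.01 with no filter and 0.01 to 0.23 without 1 array. Of genes not called, some changed direction without 1 array: Col3a1 (-0.02 to 0.10), Col5a1 (-0.08 to 0.15), Col7a1 (-0.15 to 0.18) and Col8a1 (-0.0030 to 0.31). Col7a1 did so with quantile normalisation (-0.02), as did Col4a6 in its other probe set (0.11). Col18a1, a gene called as fallen, also changed direction in its other probe set (0.06). The causes of these changes were not tested.

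With 3 arrays a genotype, a missed threshold does not show that levels were alike. Without detection calls, signal over background is unknown, which bears most on the 16 dim collagens and on Col4a3, Col4a4 and Col9a1. The calls of Col1a1, Col1a2, Col14a1 and Col15a1 were kept in every alternative of the gene fit other than array 3 alone, where that of Col1a1 was kept.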
